A study of Mus musculus with 48 samples.

Results

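The 38 genes described here encode sarcomere proteins and the excitation, calcium and energy machinery of skeletal muscle fibres, measured in a bone sample. They were chosen by name, as the rows of the deposited count table with these symbols, and the myosins are not among them. All 38 were found among 32544 gene rows and all 38 passed the filter on low counts, which left 16882 genes. RNA was taken from the tibial metaphysis, the flared end of the shin bone, of 19-week-old males of 8 inbred strains. The immobilized group is the left hindlimb after 3 weeks in a cast, and the control group is the uncast right hindlimb of the same mouse, in each of the wild-derived CAST/EiJ, PWK/PhJ and WSB/EiJ and the laboratory strains 129S1/SvImJ, A/J, C57BL/6J, NOD/ShiLtJ and NZO/HlLtJ. Each strain gave 3 mice, with no other allele or agent named. A/J control libraries 2 and 5 were close to empty and were left out, so that 24 immobilized and 22 control libraries and 22 complete mice remained, of which A/J gave 1. Since the cast was always on the left, side and cast cannot be told apart.

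Muscle shortens when actin thin filaments slide past myosin thick filaments. Calcium released from the sarcoplasmic reticulum binds troponin on the thin filament and allows the sliding to begin, and the Z-disc anchors the thin filaments of neighbouring sarcomeres. Slow and fast fibres build these structures from different genes: Tnni1, Tnnt1, Tnnc1, Myoz2, Casq2 and Csrp3 are typical of slow fibres, Tnni2, Tnnt3, Tnnc2, Actn3, Mybpc2, Myoz1, Pvalb, Atp2a1, Casq1 and Ampd1 of fast fibres. Bone and marrow cells make little of most of them, while muscle inserts on the tibia.

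The labelled tissue was checked first. The summed level of 13 osteoblast and osteocyte genes ran from 8808 to 268082 CPM (counts relative to the scaled total of the library) in immobilized limbs and from 4839 to 107876 CPM in control limbs, so bone genes were detected in every library. The summed level of the 38 muscle genes ran from 57.8 to 25717 CPM in immobilized limbs and from 101 to 75870.1 CPM in control limbs. None of the 38 was at 0 in all 46 libraries. Totals were 5253408 to 14744056 counts per library. In NZO/HlLtJ they were 13920679, 13410118 and 14744056 in immobilized limbs, against 7857780, 7746981 and 7769181 in control limbs. Immobilized limbs also had higher totals than any control limb of their strain in A/J and C57BL/6J, and lower totals in CAST/EiJ. These are bulk samples, in which fewer muscle fibres and less RNA per fibre cannot be told apart.

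Promoters are shown for 3 genes that fell in immobilized limbs and stand for the slow thin filament, the slow Z-disc and the actin common to all skeletal fibres. Sequences are from RefSeq on GRCm38.p6, 300 bases from 250 before the annotated start, read 5′ to 3′ on the strand of the gene, and capitals mark motif matches. For Tnni1 the first of 2 RefSeq starts is shown.
Tnni1 promoter, chr1:135799171-135799470, plus strand: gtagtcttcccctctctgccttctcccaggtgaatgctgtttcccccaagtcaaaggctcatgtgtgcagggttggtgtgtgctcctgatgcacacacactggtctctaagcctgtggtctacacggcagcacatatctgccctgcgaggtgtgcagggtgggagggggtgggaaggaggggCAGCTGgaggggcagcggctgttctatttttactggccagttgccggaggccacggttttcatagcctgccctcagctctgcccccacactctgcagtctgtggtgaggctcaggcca
Myoz2 promoter, chr3:123034938-123035237, minus strand: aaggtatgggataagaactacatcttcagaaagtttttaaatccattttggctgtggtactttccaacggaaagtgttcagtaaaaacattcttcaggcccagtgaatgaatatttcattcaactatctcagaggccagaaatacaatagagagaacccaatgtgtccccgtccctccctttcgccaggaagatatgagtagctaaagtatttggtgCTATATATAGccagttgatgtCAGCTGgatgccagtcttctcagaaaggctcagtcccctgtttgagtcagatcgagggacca
Acta1 promoter, chr8:123894726-123895025, minus strand: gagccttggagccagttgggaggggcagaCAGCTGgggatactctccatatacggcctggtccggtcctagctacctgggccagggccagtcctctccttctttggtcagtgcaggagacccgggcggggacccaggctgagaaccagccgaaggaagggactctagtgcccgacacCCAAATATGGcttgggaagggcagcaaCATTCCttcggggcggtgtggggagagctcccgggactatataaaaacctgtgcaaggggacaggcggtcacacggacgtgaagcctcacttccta
The Tnni1 window holds CAGCTG, a form of the E-box read by myogenic factors, at bases -68 to -63 from the start. The Myoz2 window holds a MEF2 site at -33 to -24 and CAGCTG at -12 to -7. In Acta1, CAGCTG stands at -221 to -216, a CArG box, the site of serum response factor, at -73 to -64, and CATTCC, the core read by TEAD factors, at -46 to -41. RefSeq promoters matched 28 of the 38 genes, with 34 start sites. On either strand, CAGCTG was present in 13 of 34 of these promoters, against 16.3% of all 32851 promoters. The MEF2 site was present in 5 of 34, against 3.19% of all, the CArG box in 3 of 34, against 1.63%, and CATTCC in 8 of 34, against 14.7%. A match is a run of letters in this window and no measure of binding. The matches of different motifs did not overlap in the 3 windows shown.

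The share of all counts that fell in the 38 genes differed widely among libraries. In NOD/ShiLtJ the share was 0.232%, 0.856% and 0.251% in immobilized limbs, against 6.29%, 1.66% and 2.4% in control limbs of mice 4, 5 and 6, the highest control group of the study. In 129S1/SvImJ it was 2.48%, 0.171% and 0.2% in immobilized limbs, against 1.66%, 2.85% and 0.952% in control limbs of mice 2, 3 and 6. In WSB/EiJ it was 0.0101%, 0.0145% and 0.0117% in immobilized limbs, against 0.0384%, 0.0323% and 0.0872% in control limbs of mice 2, 4 and 5. The groups did not overlap in NOD/ShiLtJ or WSB/EiJ, and 129S1/SvImJ mouse 2 was higher in its immobilized limb. In C57BL/6J the share was 0.0666%, 0.186% and 0.111% in immobilized limbs, against 0.151%, 0.0101% and 0.0905% in control limbs of mice 1, 4 and 6. In CAST/EiJ it was 0.178%, 0.0513% and 0.0675% in immobilized limbs, against 0.0907%, 0.777% and 0.035% in control limbs of mice 2, 3 and 4. In these 2 strains the limbs overlapped, and C57BL/6J control 4 had the lowest share of any control library. In NZO/HlLtJ the share was 0.00601%, 0.0734% and 0.0511% in immobilized limbs, against 0.165%, 0.0412% and 0.729% in control limbs of mice 4, 5 and 6. In PWK/PhJ it was 0.115%, 0.221% and 0.0332% in immobilized limbs, against 0.323%, 0.173% and 0.154% in control limbs of mice 3, 4 and 6. The A/J limbs held 0.0457%, 0.0492% and 0.279% when immobilized, against 1.5% in the 1 control limb. NZO/HlLtJ immobilized 4 had the lowest share of all 46 libraries.

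**Figure D1:**
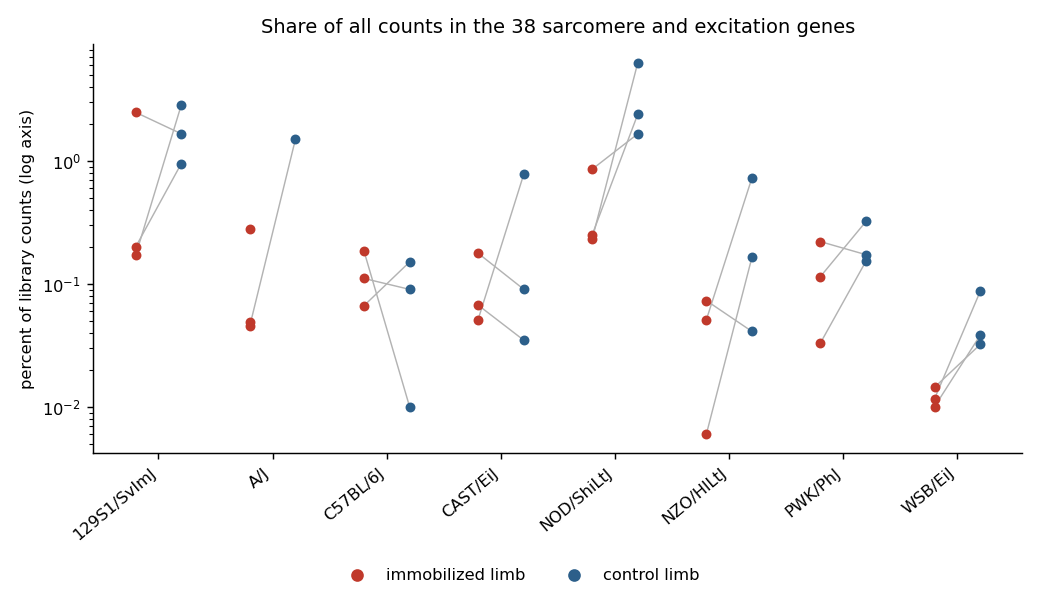
Percent of each library's counts in the 38 sarcomere and excitation genes (log axis) by strain, with immobilized limbs in red left of control limbs in blue and lines joining the limbs of a mouse. NOD/ShiLtJ control limbs lie between 1.66% and 6.29% and overlap 129S1/SvImJ limbs, and WSB/EiJ immobilized limbs are all at or under 0.0145%.

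Averaged over the 8 strains, 28 of the 38 genes fell in immobilized limbs and 0 rose, at a false discovery rate (FDR) of 0.05 over all genes tested, where 2.86% of all 16882 genes fell and 4.58% rose. The median of the 38 mean effects was -1.89 on the log2 scale, beside 0.00945 over all genes. All 38 estimates were below 0, from -3.18 ± 0.56 for Tnni1 to -0.93 ± 0.38 for Casq2 (SE, 22 mice), and all 38 had an unadjusted p under 0.05. The 10 genes that did not pass were Tnnc1, Ckm, Ttn, Neb, Casq1, Casq2, Ryr1, Jph1, Xirp2 and Cmya5. The test was edgeR's quasi-likelihood test with a term for each mouse, and every FDR below is from it unless another tool is named. Shares of all genes are given beside calls at edgeR's FDR only. Counts at an unadjusted p or by DESeq2 have no such share to be read against. With no filter on low counts, 11 genes fell.

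The number of genes called rested on single mice. It was 13 without NZO/HlLtJ mouse 6 or WSB/EiJ mouse 5, 14 without 129S1/SvImJ mouse 6, NOD/ShiLtJ mouse 6 or PWK/PhJ mouse 3, and 15 without 129S1/SvImJ mouse 3, C57BL/6J mouse 1 or WSB/EiJ mouse 2. It was 16 without C57BL/6J mouse 6 and 17 without NOD/ShiLtJ mouse 4. In the other fits it was 19 to 36, and 13 genes were called in every one of these 22 fits: Tnni1, Tnnt1, Mybpc1, Actn2, Myoz1, Myoz2, Itgb1bp2, Scn4a, Scn4b, Ckmt2, Smtnl1, Smtnl2 and Apobec2. With A/J mouse 1 and NZO/HlLtJ mouse 4 both left out, a choice made after seeing the data, 15 genes fell and all 38 estimates stayed below 0.

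**Figure D2:**
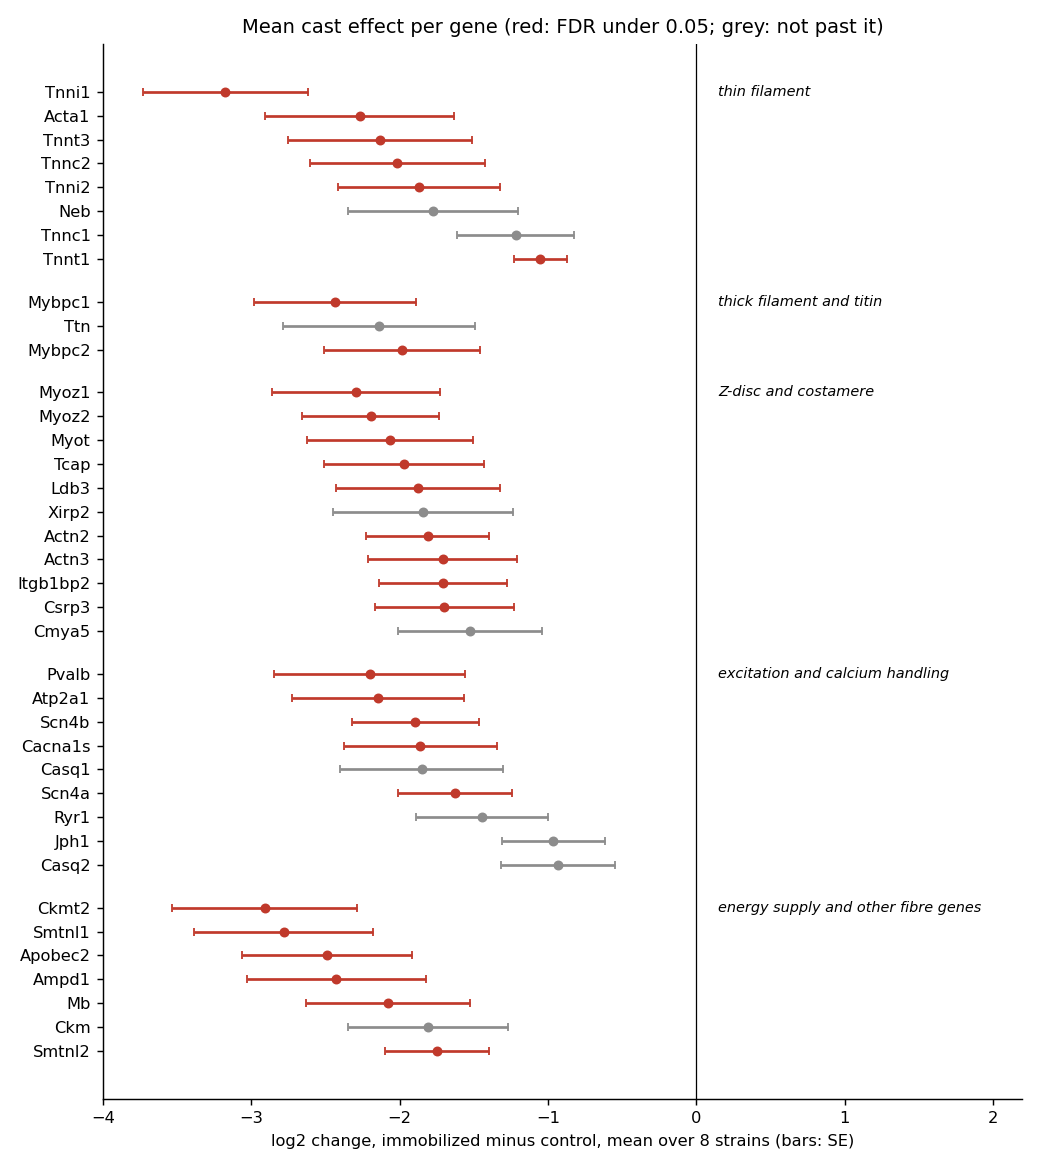
Mean cast effect of each gene over 8 strains (log2 change, immobilized minus control; bars are 1 SE from the fit to 22 mice), in 5 role groups. Genes with an FDR under 0.05 are red and the 10 others grey; all 38 estimates lie below 0.

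Thin filament genes fell in 6 of 8 cases. Acta1, the actin of the skeletal thin filament (chromosome 8, 123891769 to 123894751, GRCm38), was among the most abundant. In NOD/ShiLtJ it had 326, 870.1 and 353 CPM in immobilized limbs, against 9612, 2583 and 2959 CPM in control limbs. In 129S1/SvImJ it had 3169, 157 and 256 CPM in immobilized limbs, against 2542, 3549.6 and 1339 CPM in control limbs. In WSB/EiJ it had 3.28, 8.19 and 3.19 CPM in immobilized limbs, against 41, 36.4 and 102 CPM in control limbs. The limbs did not overlap in NOD/ShiLtJ and WSB/EiJ, and in 129S1/SvImJ 1 immobilized limb lay above 2 of the 3 control limbs. In C57BL/6J Acta1 had 52.1, 215 and 153 CPM in immobilized limbs, against 173, 7.45 and 109 CPM in control limbs. In CAST/EiJ it had 294, 70.4 and 52.4 CPM in immobilized limbs, against 106, 1036 and 44.1 CPM in control limbs. In PWK/PhJ it had 129, 309 and 42 CPM in immobilized limbs, against 363, 178 and 114 CPM in control limbs. These 3 strains had limbs that overlapped, and C57BL/6J control 4 stood far under its strain mates. In NZO/HlLtJ Acta1 had 0.761, 87.8 and 49.2 CPM in immobilized limbs, against 189, 47.3 and 942 CPM in control limbs. In A/J it had 41.6, 45.1 and 141 CPM in immobilized limbs, against 1505 CPM in the control limb. Only NZO/HlLtJ immobilized 4 of all 46 libraries lay under 1 CPM. Over the strains Acta1 fell by 2.27 ± 0.64 (FDR 0.0407), lower in 15 of 22 mice, and the call failed in 11 of 22 fits omitting a mouse (FDR up to 0.0836, without NZO/HlLtJ mouse 6).

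**Figure D3:**
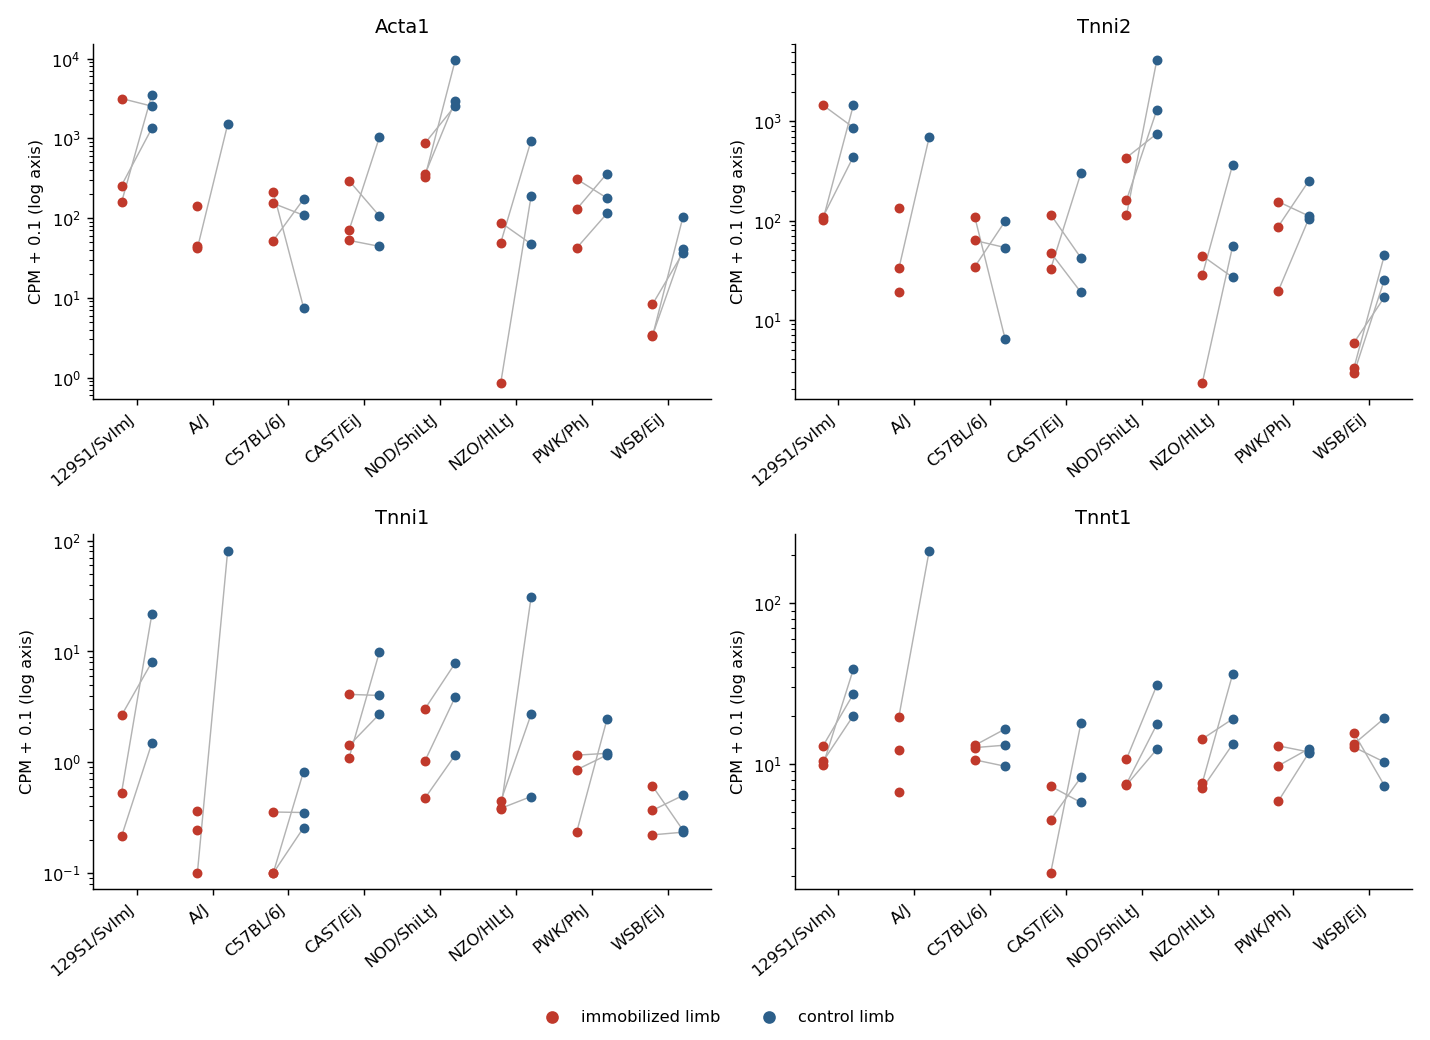
CPM + 0.1 (log axis) of the actin Acta1, the fast troponin I gene Tnni2 and the slow troponin genes Tnni1 and Tnnt1 by strain, with immobilized limbs in red left of control limbs in blue and lines joining the limbs of a mouse. The slow genes are highest in the A/J control limb, at 81.4 CPM for Tnni1 and 213 CPM for Tnnt1, whereas Acta1 and Tnni2 are highest in NOD/ShiLtJ control 4.

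Troponin I holds the thin filament in its resting state, and Tnni1 is its slow gene (chromosome 1, 135779434 to 135810989). In the A/J limbs Tnni1 had 0, 0.264 and 0.144 CPM in immobilized limbs, against 81.4 CPM in the control limb. With 0 counts in the immobilized limb of mouse 1 against 470 in its control limb, the level was at least 160-fold lower, taking 3 counts as the floor of that library. In NZO/HlLtJ it had 0.277, 0.284 and 0.347 CPM in immobilized limbs, against 30.9, 0.391 and 2.62 CPM in control limbs. Only 1 NZO/HlLtJ control limb stood far above the other 5 NZO/HlLtJ libraries. In 129S1/SvImJ Tnni1 had 2.55, 0.430 and 0.114 CPM in immobilized limbs, against 7.91, 21.6 and 1.39 CPM in control limbs. In NOD/ShiLtJ it had 2.93, 0.927 and 0.374 CPM in immobilized limbs, against 7.78, 3.79 and 1.07 CPM in control limbs. In CAST/EiJ it had 4, 0.998 and 1.32 CPM in immobilized limbs, against 3.91, 9.78 and 2.62 CPM in control limbs. Every control limb of NOD/ShiLtJ and 129S1/SvImJ was above the immobilized limb of the same mouse. In PWK/PhJ Tnni1 had 0.756, 1.06 and 0.134 CPM in immobilized limbs, against 1.06, 1.11 and 2.34 CPM in control limbs. In C57BL/6J it had 0, 0.256 and 0 CPM in immobilized limbs, against 0.157, 0.252 and 0.726 CPM in control limbs, and in WSB/EiJ 0.121, 0.269 and 0.510 CPM in immobilized limbs, against 0.134, 0.402 and 0.145 CPM in control limbs. The last 2 strains were under 1 CPM in every library. The mean effect of Tnni1 was -3.18 ± 0.56 (FDR 0.00506), lower in 19 of 22 mice, and it was -1.85 (FDR 0.0115) without A/J mouse 1.

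Its fast counterpart Tnni2 (chromosome 7, 142441808 to 142444410) had 2.21 to 1454 CPM (median 55.1) in the 24 immobilized limbs, against 6.31 to 4147 CPM (median 107) in the 22 control limbs. It fell by 1.87 ± 0.55 (FDR 0.0471), and the call failed in 16 of 22 fits omitting a mouse (FDR up to 0.0891, without NZO/HlLtJ mouse 6). Effects by strain ran from -4.37 in A/J to 0.70 in C57BL/6J. Troponin T ties the complex to tropomyosin. The slow gene Tnnt1 (chromosome 7, 4504570 to 4516382) had 2 to 19.6 CPM (median 10.4) in the 24 immobilized limbs, against 5.67 to 213 CPM (median 14.8) in the 22 control limbs. It fell by 1.05 ± 0.18 (FDR 0.00472) with the smallest standard error of the 38 genes. The fast gene Tnnt3 (chromosome 7, 142498836 to 142516009) had 1.21 to 3130.4 CPM (median 121) in the 24 immobilized limbs, against 8.71 to 8634 CPM (median 222) in the 22 control limbs. It fell by 2.13 ± 0.62 (FDR 0.0467), and the call failed in 14 of 22 fits omitting a mouse (FDR up to 0.0914, without NZO/HlLtJ mouse 6). Troponin C binds the calcium. The slow and cardiac gene Tnnc1 (chromosome 14, 31208312 to 31211729) had 0.402 to 9.47 CPM (median 2.01) in the 24 immobilized limbs, against 0.580 to 165 CPM (median 2.54) in the 22 control limbs, and its change of -1.22 ± 0.40 did not pass (FDR 0.0701). It was -0.56 (FDR 0.351) without A/J mouse 1, whose control limb had 165 CPM. The fast gene Tnnc2 (chromosome 2, 164777161 to 164779967) had 0.899 to 1506 CPM (median 51.3) in the 24 immobilized limbs, against 4.42 to 4439.5 CPM (median 116) in the 22 control limbs. It fell by 2.02 ± 0.59 (FDR 0.0477), and the call failed in 16 of 22 fits omitting a mouse (FDR up to 0.0922, without NZO/HlLtJ mouse 6). Nebulin, the ruler along the thin filament encoded by Neb, had -1.78 ± 0.58 (FDR 0.0707). Effects by strain ran from -3.4 in A/J to 0.26 in WSB/EiJ for Tnnt1, and from -5.64 in A/J to 0.78 in C57BL/6J for Tnnc1.

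Of 3 genes of the thick filament and titin, 2 fell. Myosin binding protein C links myosin and actin. Mybpc1, its slow gene, which fast fibres also express (chromosome 10, 88518279 to 88605152), had 0.121 to 599.5 CPM (median 19.3) in the 24 immobilized limbs, against 0.631 to 2527 CPM (median 35.5) in the 22 control limbs. It fell by 2.44 ± 0.55 (FDR 0.0172), and effects by strain ran from -5.3 in NZO/HlLtJ to 0.25 in CAST/EiJ. The fast gene Mybpc2 (chromosome 7, 44501699 to 44524656) had 1.04 to 438 CPM (median 16.5) in the 24 immobilized limbs, against 1.77 to 1565 CPM (median 21.9) in the 22 control limbs. It fell by 1.98 ± 0.53 (FDR 0.0333), lower in 18 of 22 mice. For Mybpc2, the call failed in 8 of 22 fits omitting a mouse (FDR up to 0.0631, without NZO/HlLtJ mouse 6). Titin, the molecular spring from Z-disc to M-band encoded by Ttn, had -2.14 ± 0.65 (FDR 0.0541).

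Among genes of the Z-disc and costamere, the links between sarcomeres and the membrane, 9 of 11 fell. The calsarcins tether calcineurin at the Z-disc. Myoz2, the slow calsarcin (chromosome 3, 123006206 to 123035015), fell by 2.2 ± 0.46 (FDR 0.0126), with lower values in 19 of 22 mice. In NOD/ShiLtJ it had 6.86, 12.8 and 4.3 CPM in immobilized limbs, against 174, 55.7 and 39 CPM in control limbs. In C57BL/6J it had 0.287, 0 and 2.14 CPM in immobilized limbs, against 3.93, 0.126 and 2.32 CPM in control limbs. NOD/ShiLtJ limbs did not overlap, and C57BL/6J limbs did. The fast calsarcin Myoz1 (chromosome 14, 20649107 to 20656540) had 0.277 to 452 CPM (median 9.04) in the 24 immobilized limbs, against 1.51 to 1219 CPM (median 26) in the 22 control limbs, and fell by 2.3 ± 0.57 (FDR 0.025), lower in 16 of 22 mice. Actn2 and Actn3 encode the alpha-actinins that crosslink actin at the Z-disc, Actn3 in fast fibres only. Actn2 fell by 1.81 ± 0.42 (FDR 0.0188) although it was lower in only 12 of 22 mice. In NZO/HlLtJ it had 0.623, 1.14 and 1.6 CPM in immobilized limbs, against 21.6, 4.56 and 59.9 CPM in control limbs. In WSB/EiJ it had 15.4, 17.9 and 19 CPM in immobilized limbs, against 11.9, 8.44 and 11.2 CPM in control limbs. Each WSB/EiJ immobilized limb was above all 3 control limbs of that strain, while each NZO/HlLtJ immobilized limb was below its 3 control limbs. Actn3 fell by 1.71 ± 0.50 (FDR 0.0484), and the call failed in 16 of 22 fits omitting a mouse (FDR up to 0.0959, without A/J mouse 1). The smallest and largest changes among the other 5 called genes were -1.7 ± 0.47 for Csrp3, a LIM protein of the Z-disc typical of slow fibres, and -2.06 ± 0.56 for myotilin (Myot). Between them lay Itgb1bp2, the integrin-binding melusin (-1.71 ± 0.43), the PDZ and LIM protein gene Ldb3 (-1.88 ± 0.55) and telethonin (Tcap, -1.97 ± 0.54), which caps titin. Of these 5, Itgb1bp2 kept its call in all 22 fits, whereas Csrp3 lost it in 13 (highest FDR 0.0642 without C57BL/6J mouse 1), Myot in 11 (0.0776 without WSB/EiJ mouse 2), Ldb3 in 17 (0.0942 without NZO/HlLtJ mouse 6) and Tcap in 11 (0.0692 without NZO/HlLtJ mouse 6). The actin-binding Xirp2 had -1.84 ± 0.60 (FDR 0.0737), and Cmya5, a costamere protein, -1.53 ± 0.48 (FDR 0.0659).

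Genes of excitation and calcium handling fell in 5 of 9 cases. Cacna1s encodes the voltage sensor of the T-tubule (chromosome 1, 136052750 to 136119822), and had 0.269 to 169.9 CPM (median 5.75) in the 24 immobilized limbs, against 0.883 to 432 CPM (median 10) in the 22 control limbs. It fell by 1.86 ± 0.51 (FDR 0.0382), and the call failed in 14 of 22 fits omitting a mouse (FDR up to 0.0692, without NZO/HlLtJ mouse 6). The calcium release channel that it opens, Ryr1 (chromosome 7, 29003344 to 29125179), had 4.37 to 347 CPM (median 19.5) in the 24 immobilized limbs, against 3.75 to 1236 CPM (median 26.6) in the 22 control limbs, and its change of -1.44 ± 0.44 did not pass (FDR 0.0575) and was -0.96 (FDR 0.132) without A/J mouse 1. Ryr1 was lower in 14 of 22 mice, with effects by strain from -4.84 in A/J to 0.91 in C57BL/6J, and those of Cacna1s ran from -4.69 in A/J to 0.52 in C57BL/6J. Junctophilin 1, which holds the T-tubule against the reticulum, had -0.96 ± 0.35 (FDR 0.1), and was -0.55 (FDR 0.276) without A/J mouse 1. Scn4a and Scn4b encode subunits of the muscle sodium channel. Scn4a fell by 1.63 ± 0.38 (FDR 0.0208) and Scn4b fell by 1.89 ± 0.43 (FDR 0.018), lower in 17 of 22 mice and 18 of 22 mice. Both were among the genes called whichever mouse was left out. Atp2a1, the calcium pump of fast fibres (chromosome 7, 126445858 to 126463108), had 2.7 to 2914 CPM (median 80.3) in the 24 immobilized limbs, against 8.08 to 7750.5 CPM (median 137) in the 22 control limbs. It fell by 2.15 ± 0.58 (FDR 0.036), with effects by strain from -5.47 in A/J to 0.76 in C57BL/6J. For Atp2a1, the call failed in 9 of 22 fits omitting a mouse (FDR up to 0.0689, without NZO/HlLtJ mouse 6). Parvalbumin (Pvalb, chromosome 15, 78191114 to 78206400), the calcium buffer of fast fibres, had 0.277 to 1501 CPM (median 43.5) in the 24 immobilized limbs, against 5.17 to 4519 CPM (median 97.9) in the 22 control limbs. It fell by 2.2 ± 0.65 (FDR 0.048), with effects by strain from -4.52 in A/J to 0.97 in C57BL/6J. For Pvalb, the call failed in 15 of 22 fits omitting a mouse (FDR up to 0.0941, without NZO/HlLtJ mouse 6). The calsequestrins store calcium in the reticulum. Casq1, the fast gene (chromosome 1, 172209894 to 172219868), had 0.692 to 365 CPM (median 13.9) in the 24 immobilized limbs, against 0.883 to 1110.0 CPM (median 20.9) in the 22 control limbs, and its change of -1.85 ± 0.55 had an FDR of 0.0506. Casq2, the slow and cardiac gene (chromosome 3, 102086415 to 102146514), had 0.378 to 4.38 CPM (median 1.26) in the 24 immobilized limbs, against 0 to 56.6 CPM (median 2.09) in the 22 control limbs. Its change of -0.93 ± 0.38 (FDR 0.149) was the smallest of the 38.

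Of 7 genes of energy supply and other fibre functions, 6 fell. Creatine kinase regenerates ATP during contraction. Its mitochondrial gene Ckmt2 fell by 2.91 ± 0.62 (FDR 0.0141), lower in 18 of 22 mice, with estimates below 0 in all 8 strains. In NOD/ShiLtJ it had 13, 23.3 and 3.93 CPM in immobilized limbs, against 681, 158 and 239.8 CPM in control limbs. In WSB/EiJ it had 0, 0.403 and 0 CPM in immobilized limbs, against 2.95, 1.88 and 2.03 CPM in control limbs. The limbs did not overlap in either strain. The cytosolic gene Ckm (chromosome 7, 19404776 to 19422841) had 7.61 to 2095 CPM (median 70.5) in the 24 immobilized limbs, against 5.55 to 5880.4 CPM (median 102) in the 22 control limbs, and its change of -1.81 ± 0.54 had an FDR of 0.052, with effects by strain from -5.5 in A/J to 1.29 in C57BL/6J. Myoglobin (Mb, chromosome 15, 77015487 to 77050670), the oxygen store, had 0 to 1839 CPM (median 47.7) in the 24 immobilized limbs, against 1.01 to 3729 CPM (median 143) in the 22 control limbs. It fell by 2.08 ± 0.56 (FDR 0.034), with effects by strain from -4.77 in NZO/HlLtJ to 0.79 in CAST/EiJ, and the call failed in 7 of 22 fits omitting a mouse (FDR up to 0.0574, without 129S1/SvImJ mouse 6). Estimates were below 0 in all 8 strains also for Smtnl1 (-2.78 ± 0.61) and Smtnl2 (-1.75 ± 0.35), smoothelin-like genes of muscle, for the muscle deaminase gene Apobec2 (-2.49 ± 0.57) and for AMP deaminase (Ampd1, -2.43 ± 0.60). Myoz2 and Itgb1bp2 were the other such genes. Ampd1 lost its call in 2 fits (highest FDR 0.0695 without WSB/EiJ mouse 5).

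Levels per kilobase of exon ordered the genes within a limb. In immobilized limbs the median level was highest for Tnnt3, at 76.7 CPM per kb, then Acta1 at 70.7 and Tnnc2 at 64.1 CPM per kb, and lowest for Tnni1 at 0.0876 CPM per kb. In control limbs it was highest for Tnnc2 at 144, Tnnt3 at 140.0 and Acta1 at 119.7 CPM per kb, and lowest for Tnni1 at 0.518 CPM per kb. The ranges of the 3 highest genes overlapped over libraries in both limbs. Exons of 15 of the 38 genes overlap a gene on the opposite strand, among them Tnnc2 (with Ube2c), Atp2a1 (with Rabep2) and Mb (with Apol6), and with the strand setting of the counting not given, reads of the 2 cannot be told apart there.

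The effect of the cast within a strain was compared next. Estimates of all 38 genes were below 0 in 129S1/SvImJ, A/J, NOD/ShiLtJ and NZO/HlLtJ, 37 in PWK/PhJ, 34 in WSB/EiJ, 24 in CAST/EiJ and 13 in C57BL/6J. Medians over the 38 genes were -1.84 in 129S1/SvImJ, -4.83 in the A/J pair, 0.43 in C57BL/6J, -0.24 in CAST/EiJ, -2.97 in NOD/ShiLtJ, -2.76 in NZO/HlLtJ, -0.98 in PWK/PhJ and -2.15 in WSB/EiJ, while the medians over all genes lay between -0.031 and 0.026. In NOD/ShiLtJ 6 of 38 genes fell, where 2.78% of all genes fell. They were Ckmt2 (-4.72 ± 1.31), Smtnl1 (-3.42 ± 0.96), Actn2 (-3.67 ± 0.99), Myoz2 (-3.3 ± 0.95), Scn4a (-3.19 ± 0.87) and Smtnl2 (-3.35 ± 0.81). The number was 0 without NOD/ShiLtJ mouse 4 or 6 and 5 without mouse 5, and DESeq2 called 19. In A/J 2 of 38 fell, Tnni1 and Tnnt1 (-3.4 ± 0.80), where 1.28% of all genes fell. This rests on 1 mouse and assumes that A/J varies as the other strains do. It was 0 without the mouse term, and 18 with DESeq2.

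The other 6 strains had 0 of 38 genes past edgeR's FDR, where the share of all genes called lower was 5.47% in CAST/EiJ, 0.0533% in PWK/PhJ and 0% in 129S1/SvImJ, C57BL/6J, NZO/HlLtJ and WSB/EiJ. At an unadjusted p under 0.05 there were 14 in NZO/HlLtJ, 4 in 129S1/SvImJ, 4 in WSB/EiJ, 1 in CAST/EiJ and 0 in C57BL/6J and PWK/PhJ. DESeq2 called 3 in NZO/HlLtJ (Actn2, Mybpc1 and Mb) and 0 in the other 5. Whether the effect itself differed among strains was tested across the 8 limb effects. None of the 38 genes passed (edgeR, lowest FDR 0.143), where 2.5% of all genes passed. At an unadjusted p under 0.05 there were 3, Tnni1, Tnnt1 and Actn2, and DESeq2 called these 3 and Scn4a. No share of all genes is given for unadjusted p or DESeq2, so whether these counts exceed it is not shown.

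Mice of a strain differed in direction. All 38 genes were lower in the immobilized limb of 9 mice (129S1/SvImJ 3 and 6, A/J 1, CAST/EiJ 3, NOD/ShiLtJ 4 and 5, NZO/HlLtJ 4 and 6, and PWK/PhJ 6). The genes were mostly higher in the immobilized limb of 7: 34 of 38 in C57BL/6J mouse 4, 32 in 129S1/SvImJ mouse 2, 31 each in CAST/EiJ mice 2 and 4, 25 in PWK/PhJ mouse 4, 23 in NZO/HlLtJ mouse 5 and 21 in C57BL/6J mouse 6. The median difference over the 38 genes ran from -4.79 on the log2(CPM + 1) scale in NOD/ShiLtJ mouse 4 to 2.67 in C57BL/6J mouse 4. In that C57BL/6J mouse the 10 fast genes had a median of 4.5 and the 6 slow genes -0.021. In NOD/ShiLtJ mouse 4 the fast genes had -5.15 and the slow genes -1.51. These 2 mice had the lowest and the highest median over the 38 genes. In NOD/ShiLtJ mouse 5 the fast genes had -0.836 and the slow genes -1.23, and in CAST/EiJ mouse 2 they had 0.818 and 1.29. The difference between slow and fast genes thus varied among mice, and adding 1 CPM shrinks that of low genes.

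**Figure D4:**
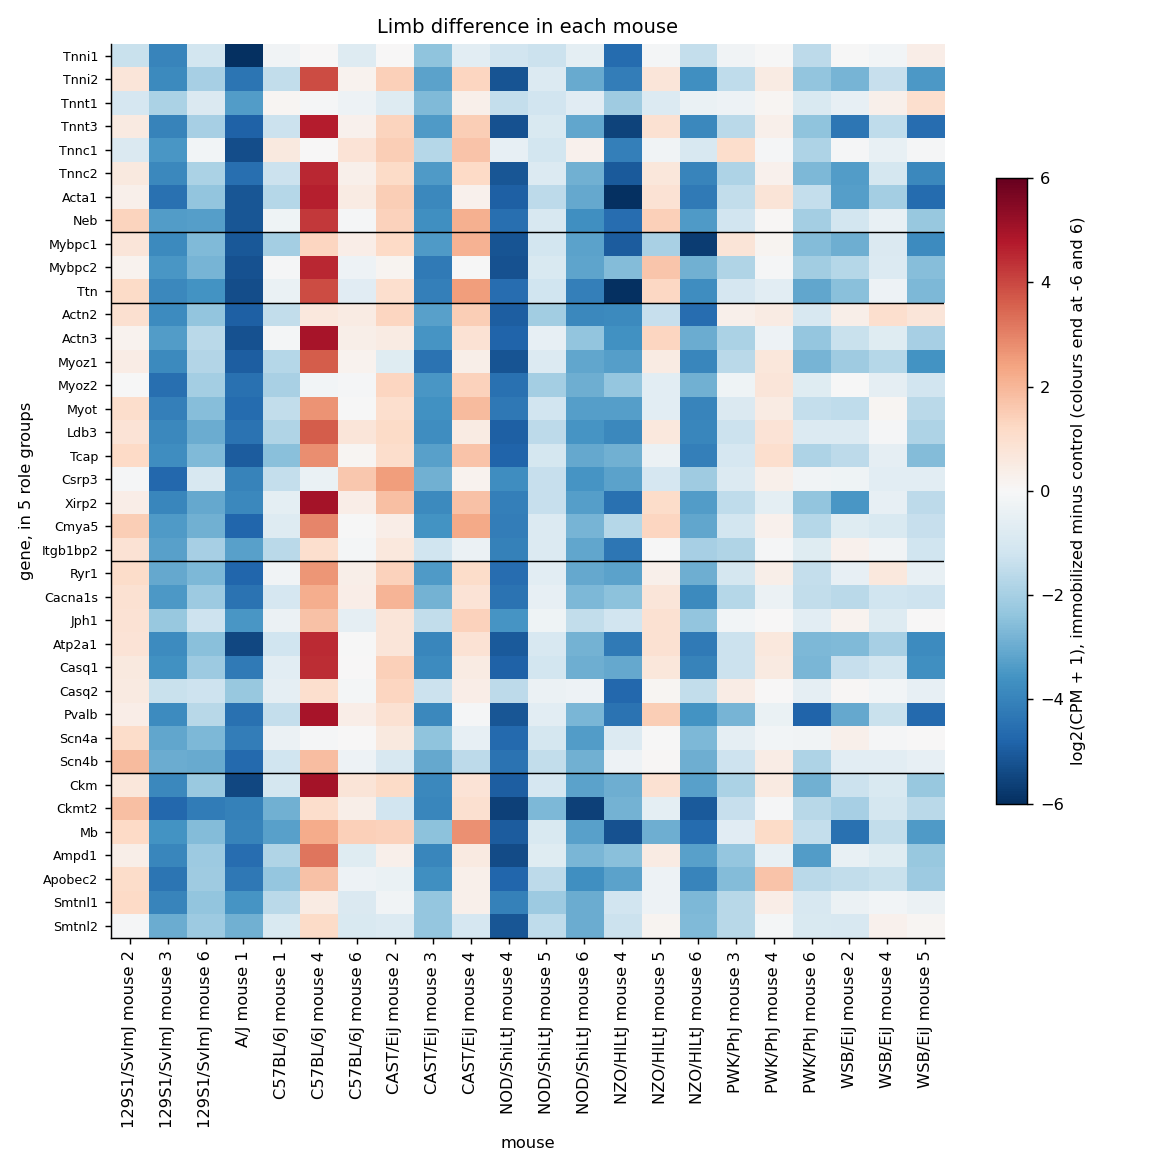
Difference in log2(CPM + 1), immobilized minus control limb, of each of the 38 genes (rows, in 5 role groups) in each of 22 mice (columns); blue is lower and red higher in the immobilized limb. Columns are mostly of 1 colour, with all 38 genes lower in 9 mice and 34 of 38 higher in C57BL/6J mouse 4.

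Strains were then compared within a limb. In immobilized limbs 36 of 38 genes differed among the 8 strains, where 50.3% of all genes did, and Tnnt1 (FDR 0.0691) and Casq2 (FDR 0.279) did not pass. In control limbs all 38 differed, where 40.6% of all genes did. Casq2 lost its call without NZO/HlLtJ control 4 (FDR 0.0744) and Tnnt1 without A/J control 1 (FDR 0.0733). DESeq2 called 34 genes in immobilized and 38 in control limbs. Each strain was set against the mean of the other 7. In NOD/ShiLtJ immobilized limbs 25 genes were higher, where 12.7% of all genes were, with a median of 2.18 over the 38. In NOD/ShiLtJ control limbs 34 were higher, where 9.15% of all genes were, with a median of 3.74, among them Acta1 (3.82 ± 0.77, FDR 0.00268) and Ckmt2 (4.11 ± 0.68, FDR 0.00062). Tnni1, Tnnt1, Tnnc1 and Casq2 were the 4 not called there, so that no slow troponin was among the 34. In 129S1/SvImJ immobilized limbs 34 genes were higher, where 6.76% of all genes were, with a median of 3.37, among them Acta1 (3.81 ± 0.66, FDR 0.000778). In 129S1/SvImJ control limbs 16 were higher, where 5.04% of all genes were, with a median of 2.40. The immobilized group holds mouse 2, whose level stood far above those of mice 3 and 6. In WSB/EiJ immobilized limbs 18 genes were lower, where 2.84% of all genes were, with a median of -4.08, among them Acta1 (-5.21 ± 1.31, FDR 0.0162). In WSB/EiJ control limbs 12 were lower, where 2.33% of all genes were, with a median of -3.47. Tnnt1 in WSB/EiJ had 13.2, 12.6 and 15.4 CPM in immobilized limbs, against 19.2, 10.2 and 7.25 CPM in control limbs, and its fast counterpart Tnnt3 had 1.21, 10.2 and 3.44 CPM in immobilized limbs, against 43.9, 31.2 and 106 CPM in control limbs. Tnnt1 overlapped between the limbs and Tnnt3 did not.

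The remaining strains had few calls. In A/J control tissue, from 1 limb, the 3 troponin genes of slow fibres were higher, Tnni1 (5.12 ± 0.82, FDR 0.0015), Tnnt1 (3.74 ± 0.38, FDR 1.21e-05) and Tnnc1 (5.48 ± 0.73, FDR 0.000257), where 1.39% of all genes were higher. With 1 library in this group, the spread comes wholly from the other strains, and A/J is assumed to vary as they do. Estimates of all 38 genes were above 0 in this control limb, with a median of 2.16. Fast genes were among them, such as Actn3 at 2.31 and Atp2a1 at 2.24, so the higher level was not limited to slow genes. In A/J immobilized limbs 0 of 38 passed with edgeR in either direction, with 0 at an unadjusted p under 0.05, where 13.7% of all genes passed. Casq2 was higher in NZO/HlLtJ control limbs (3.07 ± 0.70, FDR 0.0156; 3.63% of all genes), with 56.6, 1.17 and 3.92 CPM in mice 4, 5 and 6. The value of mouse 4 stood far above the other 2. In NZO/HlLtJ immobilized limbs Actn2, Mybpc1 and Myoz2 were lower, where 2.05% of all genes were. In CAST/EiJ immobilized limbs Tnni1 was higher (2.46 ± 0.62, FDR 0.00712), as was Tnnc1 (1.53 ± 0.40, FDR 0.0102), where 11.1% of all genes were higher, and Tnnt1 was lower (-1.23 ± 0.34, FDR 0.0143), where 7.49% were lower. Tnnt1 was also the 1 gene lower in CAST/EiJ control limbs (-1.21 ± 0.39, FDR 0.0338; 9.57% of all genes). These calls in slow troponin genes stood on different sides, and calls among the 38 genes were no more frequent than among all genes. In PWK/PhJ immobilized limbs Myoz2 was higher (2.32 ± 0.63, FDR 0.0123; 10.7% of all genes), and in PWK/PhJ control limbs 0 passed with edgeR, with 3 at an unadjusted p under 0.05, where 16.7% of all genes passed. In C57BL/6J immobilized limbs 0 passed with edgeR, with 2 at an unadjusted p under 0.05, where 7.75% of all genes passed. In C57BL/6J control limbs Actn2 (-3.28 ± 0.99, FDR 0.0477) and Scn4b (-2.85 ± 0.76, FDR 0.0261) were lower, where 3% of all genes were. All 38 estimates were below 0 in these control limbs, with a median of -2.54, and 35 had an unadjusted p under 0.05. These contrasts were computed by edgeR only. The count table was made on mm10, which derives from C57BL/6J, and mapping by strain was not examined.

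For 6 proteins made from a slow and a fast gene, the log2 ratio of slow to fast CPM (1 CPM added to each) was compared between the limbs of a mouse, which asks whether the 2 genes moved to different extents. The ratio for troponin C averaged -3.96 in immobilized and -4.95 in control limbs, a difference of 1.0 ± 0.44 (SE, 22 mice). For calsequestrin it averaged -2.71 in immobilized and -3.62 in control limbs, a difference of 0.91 ± 0.36. The differences had p = 0.0326 and p = 0.0196 in 2-sided sign-flip permutation tests, and both had 0.0978 after adjustment over the 6 ratios. They were positive in 16 and 14 of 22 mice. The difference was 0.99 ± 0.51 for troponin T (adjusted permutation p = 0.131), 0.38 ± 0.30 for the calsarcins (0.276), 0.31 ± 0.43 for troponin I (0.487) and -0.42 ± 0.34 for myosin binding protein C (0.276). No ratio passed the threshold over all 22 mice. Without C57BL/6J mouse 4, adjusted permutation p was 0.00735 for troponin C (difference of 1.26) and calsequestrin (1.11), 0.0218 for troponin T (1.26) and 0.036 for the calsarcins (0.58). No ratio passed when any other mouse was left out, with a lowest adjusted permutation p of 0.0573 (calsequestrin, without NZO/HlLtJ mouse 4). Troponin C and calsequestrin each had an adjusted permutation p of 0.2 without NOD/ShiLtJ mouse 4. In C57BL/6J mouse 4 the 6 differences ran from -4.74 for troponin T to -3.25 for myosin binding protein C. Its control limb held the fewest muscle counts of the control libraries.

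As a share of slow plus fast transcript per kilobase, slow troponin I was 0% to 6.24% (median 0.286%) in immobilized limbs, against 0.034% to 18.9% (median 0.487%) in control limbs. Slow troponin T was 0.294% to 88.7% (median 4.27%) in immobilized limbs, against 0.255% to 51.7% (median 3.65%) in control limbs. The highest values of slow troponin T were in WSB/EiJ immobilized 2 and C57BL/6J control 4, which held few muscle counts. Slow calsequestrin was 0.664% to 69.3% (median 6.61%) in immobilized limbs, against 0% to 75.3% (median 4.3%) in control limbs. Fast genes made up most of the signal at the median of these 3 proteins in both limbs, and Mybpc1 and Mybpc2 contributed about equally, with a Mybpc1 share of 3.62% to 71.7% (median 52.9%) in immobilized limbs, against 22.2% to 71.3% (median 50.4%) in control limbs. NZO/HlLtJ control 4 had the highest slow share of the control limbs for 5 of the 6 proteins, troponin T being the exception. The added 1 CPM shrinks differences of low genes such as Tnni1, and with 0.1 CPM in its place the troponin I difference turned to -0.42 (adjusted permutation p = 0.521). Medians of the slow and fast gene effects by strain were (slow, then fast) -1.79 and -1.78 in 129S1/SvImJ, -4.65 and -4.94 in A/J, -0.047 and 0.93 in C57BL/6J, 0.020 and -0.51 in CAST/EiJ, -1.38 and -2.93 in NOD/ShiLtJ, -2.94 and -2.73 in NZO/HlLtJ, -0.30 and -1.32 in PWK/PhJ, and -0.37 and -2.94 in WSB/EiJ, with no test of the difference. The slow median was the lower one in C57BL/6J, NZO/HlLtJ and, with medians almost equal, 129S1/SvImJ.

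**Figure D5:**
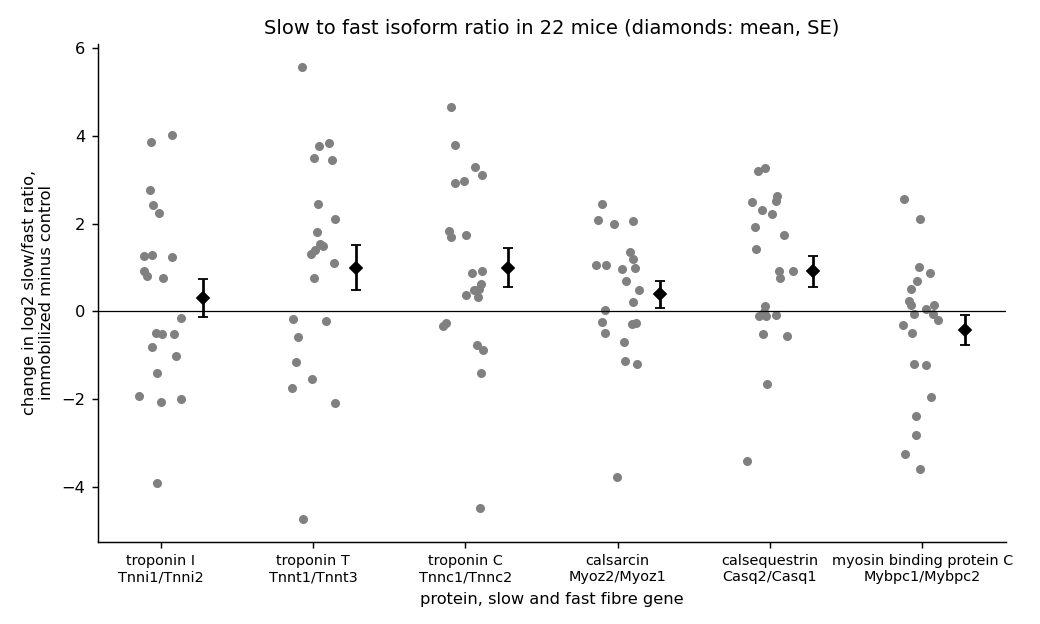
Difference between the immobilized and the control limb in the log2 ratio of slow to fast CPM (1 CPM added to each) for 6 proteins; each point is 1 of 22 mice and diamonds with bars are the mean and SE. Means run from -0.42 for myosin binding protein C to 1.0 for troponin C, and points lie on both sides of 0 for all 6.

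Other genes of the same machinery were read against these 38. Of 12 skeletal myosin chain genes 7 fell and 0 rose, and the largest changes were in the slow chains Myh7 (-3.05 ± 0.48) and Myl2 (-2.87 ± 0.44) and the fast chains Myh2 (-2.91 ± 0.59) and Myh4 (-2.35 ± 0.69). Of 36 other filament, M-band and Z-disc genes 14 fell and 0 rose, led by the actin-binding Xirp1 (-2.39 ± 0.57) and the leiomodins Lmod2 (-2.16 ± 0.60) and Lmod3 (-1.96 ± 0.52), which nucleate and lengthen thin filaments. Of 29 other genes of excitation and the neuromuscular junction 8 fell and 0 rose, led by the chloride channel Clcn1 (-1.91 ± 0.45), the triad proteins Sypl2 (-1.9 ± 0.55) and Jsrp1 (-1.8 ± 0.52), and Art1 (-1.64 ± 0.47), an ADP-ribosyltransferase. Of 20 muscle energy genes 8 fell and 0 rose, led by the muscle forms of cytochrome oxidase subunits Cox8b (-1.82 ± 0.47), Cox6a2 (-1.69 ± 0.41) and Cox7a1 (-1.66 ± 0.43) and the glycolytic Pgam2 (-1.53 ± 0.41). Sypl2 and Art1 lost their calls in 16 of 22 fits without a mouse (highest FDR 0.0976 without WSB/EiJ mouse 5 and 0.0886 without C57BL/6J mouse 1), Myh4 in 16 (0.0975), Cox7a1 in 5 (0.0575), Lmod3 in 7 (0.0624), Pgam2 in 7 (0.0602) and Cox8b in 4 (0.0613), each without NZO/HlLtJ mouse 6, Jsrp1 in 14 (0.109 without WSB/EiJ mouse 5) and Lmod2 in 12 (0.0927 without A/J mouse 1). Myogenic regulators and satellite cell genes gave 0 of 14 tested past the FDR, with a median of -0.092.

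Markers of other cell types were read in the same libraries. Of 13 osteoblast and osteocyte genes 6 rose and 0 fell, led by Ibsp (1.13 ± 0.26) and Col1a1 (1.08 ± 0.23), and their summed level had a median of 40148 CPM in immobilized and 20802 CPM in control limbs. Of 8 osteoclast genes 5 rose, led by Ctsk (1.21 ± 0.22), and of 8 marrow B cell genes 4 fell, led by Rag1 (-0.98 ± 0.20). Of 9 smooth muscle genes 2 fell, Lmod1 (-1.14 ± 0.33) and the intermediate filament gene Synm (-0.74 ± 0.22), whose calls were lost in 13 and 18 of 22 fits without a mouse (highest FDR 0.0783 without NZO/HlLtJ mouse 6 and 0.227 without A/J mouse 1). In 8 tendon genes, which mark tissue that joins muscle to bone, 0 passed, with a median of 0.50 and a summed level of 86.1 to 2094 CPM in immobilized limbs, against 71.5 to 1233 CPM in control limbs. In 8 nerve and Schwann cell genes 0 passed, with a median of -0.036, and no neutrophil, erythroid or adipocyte gene passed of 8 each. No marker of these lists was at 0 in all 46 libraries. The part of these cell types, or of muscle left on the bone at dissection, in the differences of the 38 genes was not tested.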

How the data were processed

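RNA of 48 tibial metaphysis samples was sequenced as paired ends from stranded poly(A) libraries, per the labels' protocols. The authors deposited unnormalized read counts, a column for each library and a row for each gene. Per the submitters' processing notes, featureCounts and DESeq2 were used with mm10, with no role for each. Not given in the sources used here are the aligner, the annotation, the filters and the strand setting. Of 32544 gene rows, 7355 had no count in any library. A/J control libraries 2 and 5, with 2335 and 50 counts, were left out, as they hold 1 count each in the 38 genes.

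The robust quasi-likelihood F test of edgeR 4.0.16 (R 4.3.3) was run on counts scaled by TMM and filtered with filterByExpr by group, with a Benjamini-Hochberg FDR of 0.05 over all genes tested. In the paired model, fitted to 44 libraries of 22 mice, mouse was a block and limb was nested in strain. It gave the limb effect averaged over 8 strains, that of each strain, and the test of their differences. Strains were compared by an F test in 24 immobilized and in 22 control libraries, then each against the mean of the other 7. CPM used TMM-scaled library sizes over 46 libraries, with factors from 0.808 to 1.13. The SE is the log2 change divided by the square root of F. Isoform ratios were tested by 100000 random sign flips over mice, 2-sided, adjusted over 6. Scripts for the fits were tested on simulated data. Levels per kilobase used merged exon lengths of GENCODE M21 (GRCm38), which also gave coordinates.

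Both limbs came from the same mouse, per the series design, and this is where the pairing comes from. Deviations from the group mean were also compared between limbs across genes: their correlation r had a median of 0.13 in 21 mice (range -0.31 to 0.64), and 11 mice were above 0.1. With no value at hand for limbs of different mice, r does not establish the pairing. Labels do not say that mice of a strain came from separate litters or cages. The p-values thus measure the spread between these mice: that of the limb difference in paired tests, and of the level in strain comparisons.

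Alternatives were DESeq2 1.42.0, RLE scaling, no filter on low counts, all 48 libraries, no mouse term, other pseudocounts and each mouse or library left out. The 38 genes, the role groups, the isoform pairs and the other lists were chosen with earlier results of these data known. All 38 genes are accounted for by role. Values by library or strain were set for the 12 genes of the isoform pairs and for Acta1, Ckm, Ryr1, Cacna1s, Pvalb, Atp2a1 and Mb, and values by library of Actn2 and Ckmt2 were added after they had been seen. Of each other list, at most the 4 called genes with the largest change are named.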

Additional observations from a re-analysis of the deposited data

Results flagged for a closer look

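Tnnc1, the troponin C of slow and cardiac muscle, was picked out because its scaled differences had opposite signs in different strains. In some mice the raw counts, before scaling for depth, were equal or differed the other way. In C57BL/6J the immobilized limb minus the control limb was 0.56, 0.012 and 0.80 on the log2(CPM + 1) scale in mice 1, 4 and 6, a mean of 0.46. Mouse 4 had 11 counts in each limb, so 2 of the 3 mice had more counts in the immobilized limb. The scaled difference was below 0 in 3 of 3 mice of 129S1/SvImJ (-0.86, -3.49 and -0.17), NZO/HlLtJ (-4.11, -0.22 and -0.97) and WSB/EiJ (-0.08, -0.43 and -0.065). In WSB/EiJ the counts were the same in both limbs of mouse 2, at 10, and of mouse 5, at 4, and mouse 4 had 4 counts in the immobilized and 8 in the control limb. Counts in the immobilized limb were also not lower in 129S1/SvImJ mouse 6, with 17 against 15 in the control limb, and NZO/HlLtJ mouse 5, with 20 against 14 in the control limb. Library totals of these immobilized limbs were higher too, at 8157840 against 6779407 in the 129S1/SvImJ mouse and 13410118 against 7746981 in the NZO/HlLtJ mouse. The test of differences among the 8 strains gave an FDR of 0.254 for Tnnc1, and C57BL/6J was not tested against these 3 strains alone. The levels behind it were low, at 1.41 to 2.10 CPM in C57BL/6J immobilized and 0.726 to 1.39 CPM in C57BL/6J control limbs.

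Actn2, an alpha-actinin of the Z-disc, exceeded its control level in the immobilized limb of all 3 WSB/EiJ mice, by 0.35, 1.0 and 0.72, a mean of 0.687. It was lower in 3 of 3 mice of NOD/ShiLtJ (-4.95, -2.08 and -3.85) and of NZO/HlLtJ (-3.8, -1.38 and -4.55). The test of differences among the 8 strains gave Actn2 an FDR of 0.143, and WSB/EiJ was not tested against the other 2 strains alone. In the same WSB/EiJ immobilized limbs Acta1 was at 3.28, 8.19 and 3.19 CPM, below all 3 control limbs.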

How the results depend on the processing

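Of the 38 mean effects none changed sign in any setting run. The number that fell, 28, was 11 with no filter on low counts, 37 with DESeq2 or no replicate block, 29 with RLE scaling, 22 with all 48 libraries, 15 when A/J mouse 1 and NZO/HlLtJ mouse 4 were dropped (an alternative added after seeing the data), and 13 to 36 with each mouse left out. In NOD/ShiLtJ the 6 genes became 1 with no filter, 19 with DESeq2 and 0 to 5 with a mouse left out. In A/J the 2 became 18 with DESeq2 and 0 with no replicate block. DESeq2 gave 3 in NZO/HlLtJ and 4 for differences among strains, against 0 each. Leaving out libraries gave 37 to 38 genes for strain differences in control limbs and 34 to 37 in immobilized limbs. The block changed no other call count by over 1.5 times.

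The troponin I ratio reversed to -0.423 with a pseudocount of 0.1 CPM. With each mouse left out, differences in the slow to fast ratio were 0.128 to 0.506 for troponin I, 0.772 to 1.26 for troponin T, 0.823 to 1.26 for troponin C, 0.283 to 0.58 for the calsarcins, 0.794 to 1.11 for calsequestrin and -0.565 to -0.272 for myosin binding protein C. Single genes were called in 52 further fits and lost in 217. Why counts moved was not tested. With no filter, the scaling, the estimate of the spread and the FDR all took in more genes, and these were not told apart. Depth limits the low slow genes: Tnni1 had a median of 0.315 CPM in immobilized limbs. The floor of 3 counts covers counting error only.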

Other observations

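Of the slow genes, Myoz2 and Csrp3 were highest in NOD/ShiLtJ control 4, at 174 and 186 CPM. The highest levels of the slow troponin genes and Casq2 were in 2 other control limbs. A/J control 1 had Tnnt1 at 212.6 CPM and Tnnc1 at 165 CPM, the highest values of these genes in 46 libraries, and NZO/HlLtJ control 4 had Casq2 at 56.6 CPM, the highest of the 46, and Tnnc1 at 37.7 CPM. As a share of the summed CPM of slow and fast genes, slow genes were 30% in NZO/HlLtJ control 4, 28.9% in C57BL/6J control 4, 12.2% in WSB/EiJ control 2, 10.1% in NZO/HlLtJ control 5, 9.7% in WSB/EiJ control 4 and 8.73% in A/J control 1. The immobilized limbs of A/J mouse 1 and NZO/HlLtJ mouse 4 had higher shares than their control limbs, at 12.3% and 47.6%. The immobilized limbs of the same mice had 1.69 CPM of Casq2 in A/J mouse 1 and 1.18 CPM in NZO/HlLtJ mouse 4. In WSB/EiJ the shares by mouse were 49.3%, 24% and 44% in immobilized limbs, against 12.2%, 9.7% and 3.27% in control limbs, while the summed level of the slow genes was 17.6, 15.2 and 19.6 CPM in immobilized and 24, 15 and 14.9 CPM in control limbs. Most of the slow sum in WSB/EiJ immobilized limbs was Tnnt1 alone, at 13.2, 12.6 and 15.4 CPM. In WSB/EiJ control limbs Tnnt1 had 19.2, 10.2 and 7.25 CPM. The sums run over 6 slow and 10 fast genes without correction for length, so the shares compare libraries and not genes.

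A/J control libraries 2 and 5 held 1529 and 46 genes with a count, and 1 of the 38 genes each, with 1 count.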
